A study of Arabidopsis thaliana with 6 samples.

Results

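The genes described here are 71 protein-coding genes of the Arabidopsis thaliana chromosome arms whose RNA was higher in flower buds of ddm1 plants than in wild type. They were chosen from 11580 probe sets that each name 1 protein-coding gene outside the gene-number ranges taken as pericentromeric, out of 22746 probe sets on the array without controls. A member had a mean over the ddm1 arrays at least 1 above the wild type mean on the log2 scale, its lowest ddm1 value above its highest wild type value, and an SD of at most 0.75 among the ddm1 arrays. A further 4 loci that meet these criteria, AT5G01080, AT4G29200, AT1G20160 and AT3G48740, were left out by the rule. The differences between the genotypes chose the members, so they are given below as a description, without a test.

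The series holds 6 arrays of RNA from unopened flower buds, 3 from wild type Col (Columbia) and 3 from ddm1 plants of inbred generation F6. The labels give the ddm1 allele for no array and an inbred generation for the ddm1 arrays alone, so loss of DDM1 and the history of inbreeding cannot be told apart. The labels call the arrays biological replicates and do not say how many plants went into each. Each deposited value is centred on a baseline of its own probe set, so a value is a distance from that baseline and not a level. The data therefore do not show whether a member was off in wild type, and the genes are called higher in ddm1 here. For the same reason the bud tissue could not be checked against its marker genes. UFO, a floral meristem gene, differed by 0.00 ± 0.03 (SE) between the genotypes, which says nothing about its level. It was the only 1 of 7 floral identity genes with a probe set that the annotation ties to 1 gene. The others may be on the array under probe sets without such a name.

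DDM1 is a chromatin remodelling ATPase of the SWI2/SNF2 family. It lets DNA methyltransferases reach heterochromatin and keeps transposable elements methylated and silent. Most genes of the chromosome arms are not silenced in this way, but some that carry or lie beside transposon sequence are, and such genes can become expressed when methylation is lost. Changes in methylation accumulate over generations of selfing in ddm1 lines.

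The members ranged in size of difference from 9.69 down to 1.02 on the log2 scale, with a median of 1.57, equal to 2.96-fold. The median over all 22746 probe sets was 0.00445. The criteria were met by 0.613% of the protein-coding arm probe sets and by 1.69% of all probe sets, and the mirrored criteria, for a lower value in ddm1, by 1.95% of the arm probe sets. The limma fit over all probe sets called 59 of the 71 higher at an adjusted p under 0.05, against a background of 3.5% of all probe sets and 2.07% of the protein-coding arm probe sets. Since the rule used the same contrast, this count is not evidence of its own. It was 39 without wild type replicate 1 and 33 without variance moderation.

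The differences were uneven, with a few very large ones and many near the limit. In 11 members the difference was at least 4, in 13 it lay between 2 and 4, and in 47 between 1 and 2. All 11 of the first set were called, 12 of the 13 in the second and 36 of the 47 in the third. The 12 members that were not called are named as such below.

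**Figure D1:**
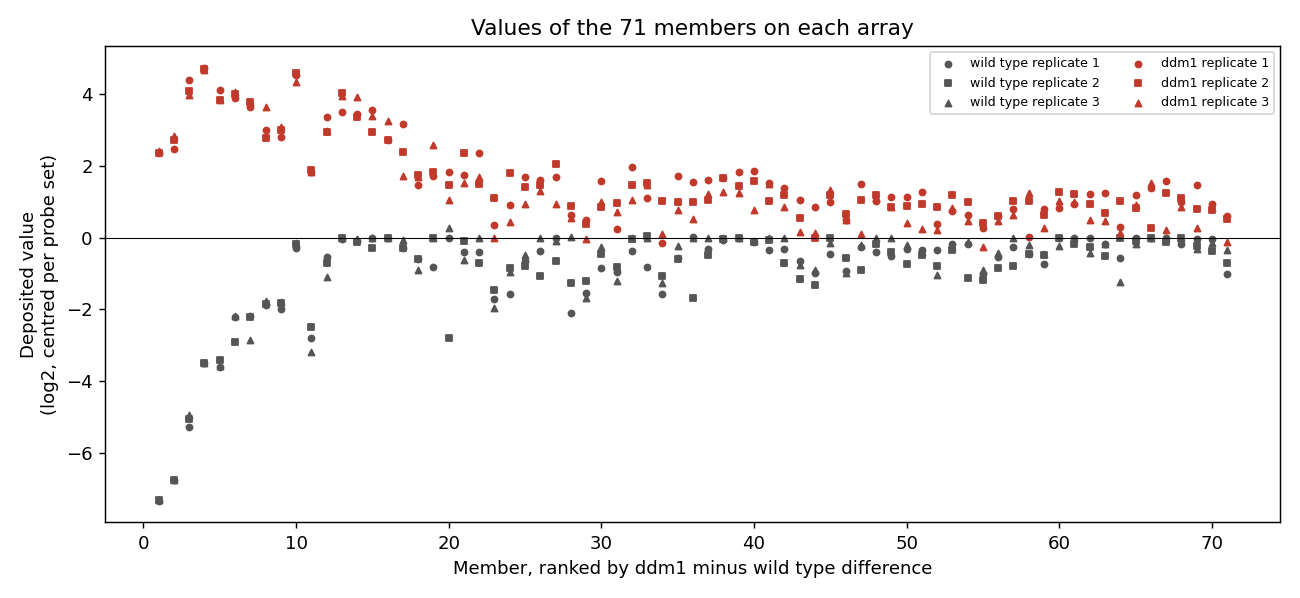
Deposited log2 values, centred per probe set, of the 71 members on each of the 6 arrays, with members ranked along the horizontal axis by their ddm1 minus wild type difference. Grey marks are wild type arrays and red marks are ddm1 arrays, 1 shape per replicate number; the 11 members on the left have differences of at least 4, with median SDs of 0.102 in wild type and 0.132 in ddm1.

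The 3 largest differences exceeded 9 on the log2 scale. AT1G58025 stood at -7.33, -7.32 and -7.31 on the wild type arrays, whereas the ddm1 arrays gave 2.35, 2.35 and 2.41, a difference of 9.69 ± 0.03 (SE from limma, with n = 3 for each genotype, as for all SE below). AT5G26270 stood at -6.77, -6.77 and -6.75 against 2.46, 2.72 and 2.82, a difference of 9.43 ± 0.10. The wild type arrays of both genes agreed to within 0.02, with SDs of 0.00965 and 0.0095, while their ddm1 arrays had SDs of 0.0342 and 0.186. The processing compresses dim signals, and a level cannot be read from centred values. Whether the close agreement in wild type reflects low signal was not tested. AT1G59930 stood at -5.28, -5.05 and -4.95 against 4.38, 4.1 and 3.97, a difference of 9.24 ± 0.14. It was read by an _x_at probe set, a kind whose probes may also match other sequences, so its values may combine several transcripts.

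AT5G41660 and AT5G03090 followed. AT5G41660 gave -3.50, -3.50 and -3.49 in wild type against 4.74, 4.69 and 4.66 in ddm1, a difference of 8.19 ± 0.03. AT5G03090 gave -3.60, -3.41 and -3.57 against 4.12, 3.83 and 3.83, a difference of 7.45 ± 0.10. In each of these genes the distance between the genotypes was many times the spread within either.

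The next members showed more spread in wild type than in ddm1. AT5G15690, read by an _s_at probe set that may match several related transcripts, stood at -2.21, -2.90 and -2.19 in wild type and at 3.89, 3.99 and 4.07 in ddm1, a difference of 6.42 ± 0.21. AT1G20400 stood at -2.19, -2.21 and -2.84 against 3.63, 3.78 and 3.78, a difference of 6.14 ± 0.19. Wild type SDs were 0.402 and 0.372 and ddm1 SDs 0.0915 and 0.0892, with a single wild type array lower than the other two in both genes, replicate 2 for AT5G15690 and replicate 3 for AT1G20400. AT3G44070 also spread more in wild type (SD 0.359) than in ddm1 (0.0422), with -2.80, -2.48 and -3.19 in wild type against 1.82, 1.89 and 1.82 in ddm1, a difference of 4.67 ± 0.18.

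AT5G45570 varied more among the ddm1 arrays than any other member with a difference of at least 4. It stood at -1.88, -1.85 and -1.78 in wild type and at 2.99, 2.79 and 3.63 in ddm1, where replicate 3 was the highest, a difference of 4.97 ± 0.22. AT5G15360 stood at -1.98, -1.81 and -1.80 against 2.81, 2.99 and 3.09, a difference of 4.83 ± 0.09. AT4G03156 stood at -0.28, -0.18 and -0.16 against 4.54, 4.6 and 4.35, a difference of 4.70 ± 0.08. The RefSeq table gives all 11 of these genes by locus number alone, so no role is stated for them.

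Where the baseline fell differed between members. In all 11 members with a difference of at least 4, every wild type value lay below 0 and every ddm1 value above it. This held in 37 of the 71 members and in 1.73% of the protein-coding arm probe sets. The rule chose members whose genotypes lie apart and the arm probe sets were not so chosen, so nothing is drawn from these shares. The sources used here do not say which samples set the baseline. At AT1G58025, AT5G26270, AT1G59930 and AT3G44070 the ddm1 arrays lay nearer to the baseline than the wild type arrays did, and at the other 7 of the 11 the wild type arrays lay nearer. Over all members the wild type mean was the nearer to 0 in 52 and the ddm1 mean in 19.

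Among the 13 members with differences between 2 and 4, the highest was AT3G29080, at -0.55, -0.70 and -1.09 in wild type against 3.36, 2.94 and 2.98 in ddm1 (3.88 ± 0.18). AT4G19240, AT1G49680, AT3G14670 and AT5G24480 followed at 3.85, 3.67, 3.39 and 2.90. At AT5G24480 the wild type arrays were flat, at -0.01, -0.01 and 0.00, and the ddm1 arrays stood at 2.73, 2.71 and 3.25. The member of this size that was not called, AT1G19960, had the most scattered wild type arrays of all members, at 0.00, -2.81 and 0.28, against 1.82, 1.46 and 1.05 in ddm1. Its difference of 2.29 was 1.30 without wild type replicate 2, and it is singled out after its values were seen.

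Of the 71 members 8 (11.3%) carry a RefSeq symbol other than their locus number, against 12.6% of the protein-coding arm probe sets. All 8 had differences between 1 and 2. They belong to varied functions, from organ growth and sulfur metabolism to membrane trafficking, and no 2 of them share a gene family by name.

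**Figure D2:**
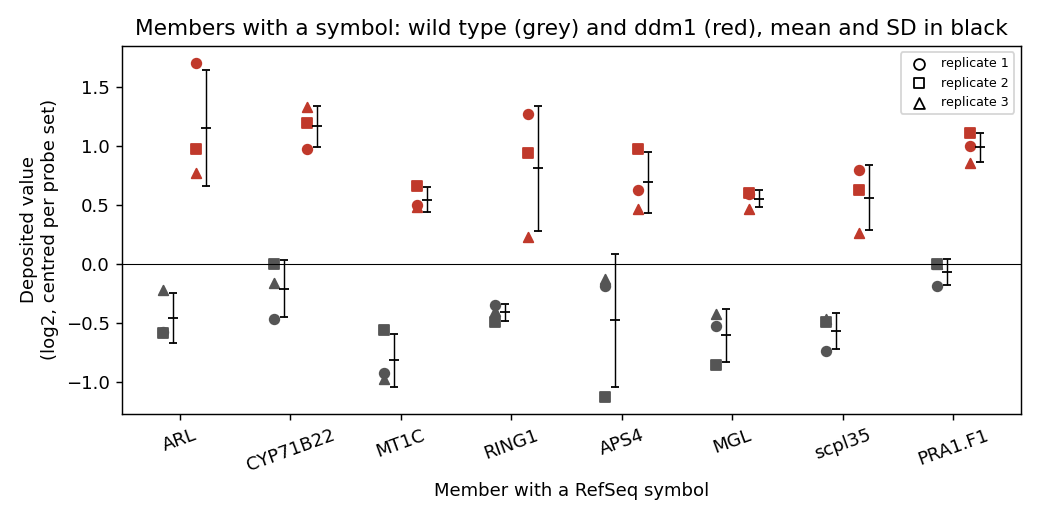
Deposited log2 values, centred per probe set, of the 8 members with a RefSeq symbol, wild type in grey and ddm1 in red with 1 shape per replicate number, and the mean and SD of the 3 arrays of each genotype in black. The ddm1 arrays of RING1 and ARL are spread from replicate 1 at the top to replicate 3 at the bottom, and the wild type arrays of APS4 are spread by a low replicate 2.

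ARL (AT2G44080), or ARGOS-like, promotes the growth of plant organs by cell expansion. It stood at -0.58, -0.59 and -0.22 in wild type and at 1.71, 0.98 and 0.77 in ddm1, a difference of 1.62 ± 0.27, and ddm1 replicate 1 was well above the other two. CYP71B22 (AT3G26200), a cytochrome P450 monooxygenase gene, stood at -0.47, 0.00 and -0.16 against 0.98, 1.20 and 1.33, a difference of 1.38 ± 0.15. MT1C (AT1G07610) encodes a metallothionein, a small cysteine-rich protein that binds metal ions. It stood at -0.93, -0.56 and -0.98 against 0.50, 0.66 and 0.48, a difference of 1.37 ± 0.13, and here the ddm1 arrays lay close together.

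A pair of the named genes act in the metabolism of sulfur. APS4 (AT5G43780) encodes an ATP sulfurylase, the enzyme that activates sulfate for assimilation, and stood at -0.19, -1.13 and -0.13 in wild type and at 0.63, 0.98 and 0.47 in ddm1. Its difference of 1.17 ± 0.31 was not called and was 0.85 without wild type replicate 2, the low array. MGL (AT1G64660) encodes methionine gamma-lyase, which breaks down methionine, and stood at -0.53, -0.86 and -0.43 against 0.59, 0.60 and 0.47, a difference of 1.16 ± 0.12.

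RING1 (AT5G10380), encoding a RING finger ubiquitin ligase, stood at -0.35, -0.49 and -0.40 in wild type and at 1.27, 0.94 and 0.23 in ddm1. Its difference of 1.22 ± 0.27 was not called, and the ddm1 arrays spread over more than 1 log2 unit. The serine carboxypeptidase-like gene scpl35 (AT5G08260) differed by 1.13 ± 0.16, with 0.80, 0.63 and 0.26 in ddm1 against -0.74, -0.49 and -0.47. PRA1.F1 (AT1G17700), a prenylated Rab acceptor gene of the vesicle trafficking system, differed by 1.06 ± 0.08, with 1.00, 1.11 and 0.86 against -0.19, 0.00 and 0.00.

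The order of the ddm1 arrays is given by size of difference as a description, since the rule used these values and no difference between the sizes was tested. Among the 47 members with differences between 1 and 2, ddm1 replicate 3 held the lowest ddm1 value in 31 and the highest in 3, and replicate 1 held the highest in 27. Over all protein-coding arm probe sets replicate 3 was the lowest in 22.0% and the highest in 50.3%. The median SD of the ddm1 arrays was 0.0748 over those probe sets and 0.294 over the members. The order over the arm probe sets therefore rests on much smaller differences between arrays and is not a like comparison. Among the 11 members with differences of at least 4, replicate 3 was the lowest in 4 and the highest in 6, and among the 13 between 2 and 4 it was the lowest in 5 and the highest in 3. Over all 71 members the median of ddm1 replicate 1 minus replicate 3 was 0.23 and that of replicate 2 minus replicate 3 was 0.23.

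The limit on the SD of the ddm1 arrays set aside 41 arm probe sets that met the other criteria, and replicate 3 held the lowest ddm1 value in 39 of them and replicate 1 the highest in 35. Of the members just inside this limit, AT5G44580 stood at 3.16, 2.38 and 1.73 in ddm1 (SD 0.717), AT2G39210 at 1.5, 1.06 and 0.11 (0.711) and AT3G13950 at 1.57, 1.25 and 0.21 (0.710). AT2G39210 and AT3G13950 were not called, with differences of 1.35 ± 0.41 and 1.06 ± 0.36. Just outside it were ATPMEPCRB (AT4G02330, SD 0.774), AT1G66880 (0.790) and AT5G55450 (0.791), in each of which the values also ran from a high replicate 1 to a low replicate 3. Without ddm1 replicate 3 the criteria were met by 116 arm probe sets in place of 71, with 68 of the 71 among them, and the median difference of the 71 was 1.73.

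**Figure D3:**
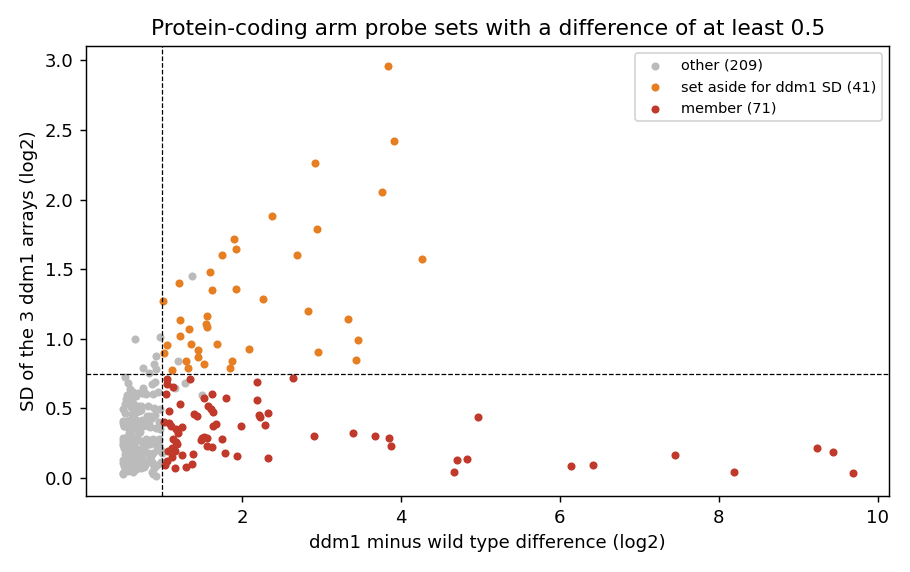
SD of the 3 ddm1 arrays against the ddm1 minus wild type difference, both on the log2 scale, for protein-coding arm probe sets with a difference of at least 0.5. Red points are the 71 members, orange points the 41 set aside for their SD and grey points all others; dashed lines mark the limits of 1 and 0.75.

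**Figure D4:**
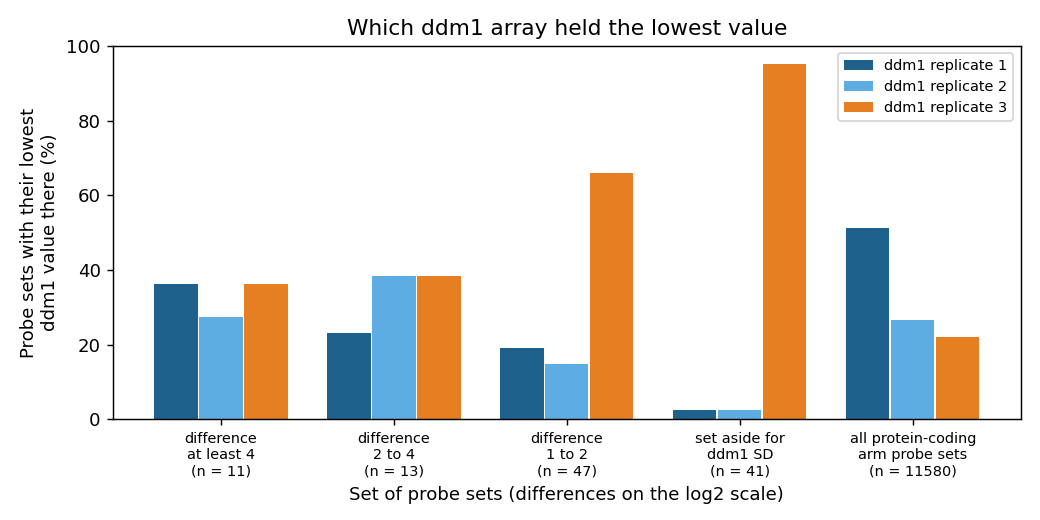
Percentage of probe sets whose lowest ddm1 value was on ddm1 replicate 1, 2 or 3, for members by size of difference, for the 41 probe sets set aside for their ddm1 SD and for all 11580 protein-coding arm probe sets. Replicate 3 was the lowest in 31 of 47 members with differences between 1 and 2 and in 39 of the 41 set aside, against 4 of the 11 members with differences of at least 4.

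At the limit on the difference, the members nearest above it were AT5G63180 (1.05 ± 0.31), AT1G71480 (1.03 ± 0.09) and AT3G25600 (1.02 ± 0.26). AT1G71480 had tight ddm1 arrays at 0.94, 0.77 and 0.82, whereas AT5G63180 ran from 1.46 to 0.26 and was not called. AT3G25600, also not called, stood at -1.0, -0.71 and -0.35 in wild type against 0.61, 0.52 and -0.13 in ddm1. Nearest below were AT1G51805 (0.99), AT1G64370 (0.98) and AT4G34150 (0.97). The smallest gap between the genotypes among members was 0.13, at AT2G25450, where wild type stood at -0.56, 0.00 and -1.23 and ddm1 at 0.29, 1.03 and 0.13. The difference there was 1.08 ± 0.39 and was not called. Probe sets that reached the difference but overlapped numbered 5, the closest being AT5G47610, AT1G49500 and SWEET13 (AT5G50800).

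All but 1 of the 12 uncalled members had differences below 2. AT1G23130 and AT5G03350, singled out after their values were seen, had scattered wild type arrays, at -2.09, -1.26 and 0.03 and at 0.03, -1.67 and 0.00. Their differences of 1.79 and 1.57 were 1.30 without wild type replicate 1 (2.36 without wild type replicate 3) and 1.01 without wild type replicate 2, respectively. Neither was called. AT3G26800 and AT1G64360 were not called either. At AT3G26800 the wild type arrays were flat and ddm1 stood at 1.37, 0.27 and 1.51. AT1G64360, with ddm1 at 0.02, 1.01 and 1.25, was low in replicate 1 in place of replicate 3.

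The kind of probe set was not part of the rule. The _s_at and _x_at probe sets, whose probes may match more than 1 transcript, made up 43 of the 11580 arm probe sets, and 6 of these 43 (14.0%) were members. Of the plain _at probe sets 65 of 11537 (0.563%) were members. Besides AT1G59930 and AT5G15690, the 6 were AT1G49680, AT1G60720, AT4G22390 and AT4G38550. Values at these 6 genes may include transcripts from other loci, and which loci was not tested.

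The members lay on all 5 chromosomes, with 24, 11, 12, 7 and 17 on chromosomes 1 to 5. That is 0.799%, 0.658%, 0.493%, 0.419% and 0.622% of the protein-coding arm probe sets of each. Some lay close to the pericentromeric ranges that the rule leaves out. Within 100 loci of a range lay 5 members (7.04%), against 3.15% of the 11370 arm genes placed in chromosome order. They were AT2G03980, AT3G44070, AT4G03156, AT3G29110 and AT3G29080, so these 5 are arm genes by the limits of the rule and lie near its border.

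Pseudogene-type loci, the RefSeq type that takes in annotated transposable element genes, lay directly beside 8 members (11.3%), against 3.98% of the arm genes. The 8 members were AT1G58025, AT1G20400, AT3G29080, AT2G03980, AT3G29110, AT3G26480, AT4G37560 and AT1G64405. Among the 10 nearest loci, 5 on each side, 18 members (25.4%) had at least 1 pseudogene-type locus, against 17.5% of the arm genes. For members with differences of at least 4 this was 5 of 11, with 5 of the 10 loci at AT3G44070. For those between 1 and 2 it was 10 of 47. These are shares of genes on the same 5 chromosomes, given as a description. AT3G29080, AT3G29110 and AT2G03980 lie both beside a pseudogene-type locus and within 100 loci of a range, so these shares are not separate observations.

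Neighbouring genes could be read where their own probe sets name 1 gene. Within 2 loci on either side, 138 such readings were taken for 63 members, and limma called 7 higher (5.07%) and 7 lower (5.07%). AT3G26460 lies within reach of 2 members and is among the 7 higher for each, so over the 136 distinct probe sets 6 were higher (4.41%) and 7 lower. The same count over all arm genes gave 2.44% higher and 5.46% lower. Of the 11 members with the largest differences 9 had a measured neighbour, and AT1G58025 and AT5G03090 had none. Around the 9, 23 neighbouring probe sets differed by -0.49 to 0.20. Of these limma called 0 higher and 1 lower, and at an unadjusted p under 0.05 also 0 were higher and 3 lower. The lower one was AT5G41650, beside AT5G41660, at -0.49 ± 0.10. AT1G20390, the pseudogene-type locus next to AT1G20400, stood at 0.20 ± 0.10 and was not called. With a share of 2.44% called higher around all arm genes, a count of 0 among 23 does not set these members apart.

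Of the 5 pseudogene-type neighbours with a reading, 3 were called higher, and so were 227 of the 923 pseudogene-type probe sets of all regions (24.6%). With 5 readings nothing is drawn from this count. AT2G04000, 2 loci from AT2G03980 and at the edge of a pericentromeric range that the rule leaves out, rose by 9.99 ± 0.23, though its _x_at probe set may read related elements elsewhere. AT5G43800, 2 loci from APS4, rose by 5.41 ± 0.09, from -1.99, -2.09 and -2.09 to 3.31, 3.22 and 3.52. AT3G29120, next to AT3G29110, rose by 0.42 ± 0.08. The members beside them had smaller differences than AT2G04000 and AT5G43800, at 1.75 for AT2G03980 and 1.17 for APS4, and AT3G29110 had a larger one than its neighbour, at 1.56.

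Members also lay near each other. Another member was found within 10 loci of 8 members (11.3%), in 4 pairs, and of 5.24% of the arm genes. Of these members AT3G29080, AT3G29110, AT3G26480 and AT1G64405 are also among those beside a pseudogene-type locus. The pair AT3G29080 and AT3G29110 lay 4 loci apart at 3.88 ± 0.18 and 1.56 ± 0.12, with no reading of the loci between them. AT3G26450 and AT3G26480 lay 3 loci apart at 1.30 ± 0.11 and 1.52 ± 0.29. Of the loci between them AT3G26460 rose by 0.68 ± 0.12 and AT3G26470 stood at 0.06 ± 0.05.

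In the other pairs the genes between the members varied. AT1G64360 (1.13 ± 0.33) and AT1G64405 (1.19 ± 0.24) lay 6 loci apart. AT1G64370, next to the former, stood at 0.98 ± 0.27, just under the limit, and the next gene, AT1G64380, fell by 2.01 ± 0.08, from 0.07, 0.00 and 0.01 to -2.13, -1.83 and -2.0. AT2G25450 (1.08 ± 0.39) and AT2G25510 (1.94 ± 0.28) lay 7 loci apart, with AT2G25460 and AT2G25500 between them at 0.01 ± 0.03 and 0.04 ± 0.05. CYP71B22 lies between CYP71B21 (AT3G26190) and CYP71B23 (AT3G26210), genes of the same cytochrome P450 subfamily, which stood at 0.01 ± 0.03 and 0.45 ± 0.16 and were not called. Its own difference of 1.38 was the largest of the 3. CYP71B22 alone was chosen for a difference of at least 1, so nothing is drawn from that order.

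**Figure D5:**
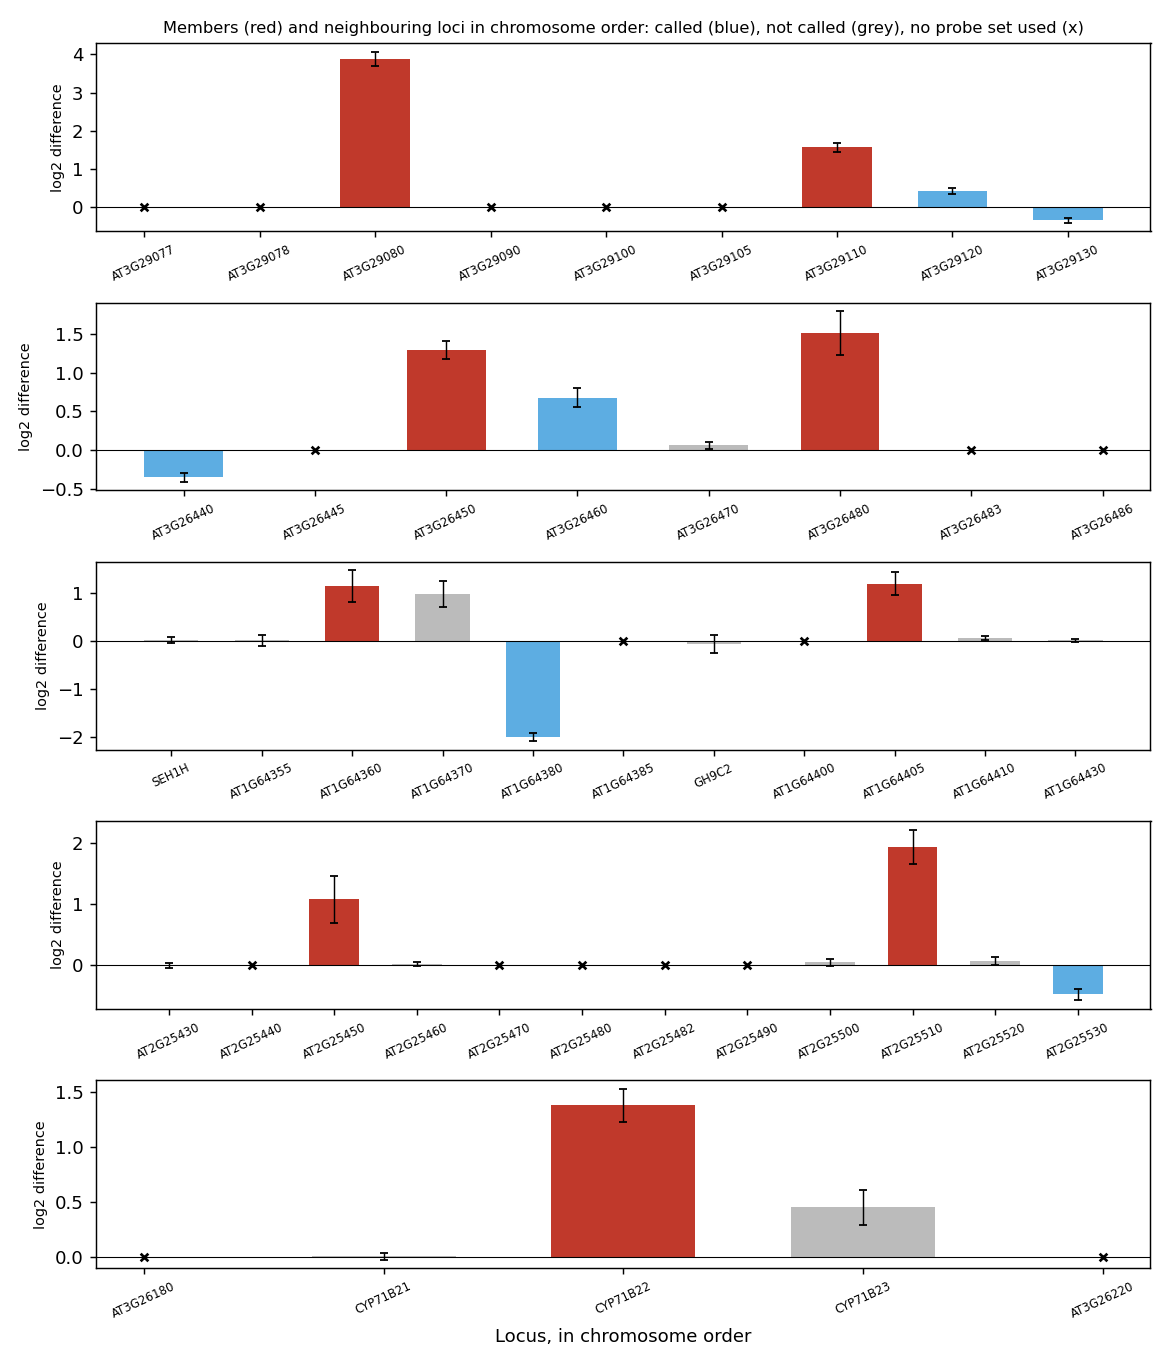
Difference between the ddm1 and wild type means (log2) with SE bars from limma, for loci in chromosome order around the 4 pairs of neighbouring members and around CYP71B22, with a vertical scale of its own in each panel. Red bars are members, blue bars other loci called by limma, grey bars loci that were not called, and crosses loci without a probe set used here; AT1G64380, lower in ddm1, lies between the members AT1G64360 and AT1G64405.

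The same criteria were met by 16 of 859 protein-coding probe sets inside the pericentromeric ranges (1.86%) and by 46 of 221 pseudogene-type probe sets on the arms (20.8%), against 71 of 11580 (0.613%) here. Differences of at least 4 made up 5 of the 16 and 29 of the 46, and 11 of the 71 here. Their medians were 3.15 and 4.86, and 1.57 for the members. These differences in size were not tested, because the criteria chose all 3 groups by the same contrast.

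Marker genes of other cell types of the bud moved between the same genotypes. Of 9 pollen markers 4 were lower in ddm1, where 5.68% of all probe sets were lower, and their mean ranged from 0.02 to 0.10 over the wild type arrays and from -0.93 to -0.72 over the ddm1 arrays. The 4 were SWEET5 at -3.61, ACT12 at -1.78, AGL30 at -0.81 and AGL66 at -0.65, so SWEET5 and ACT12 weigh most in that mean. Of the 5 that were not called, AGL104 stood at -0.72, AGL65 at -0.10, ANX2 at -0.01, ANX1 at 0.01 and ACT11 at 0.03. Of 3 markers of the tapetum and sporogenesis 2 were lower, with means of 0.15 to 0.33 and of -1.04 to -0.66. Of 3 green tissue markers 1 was higher, LHCB4.2 at 0.38 ± 0.05, where 3.5% of all probe sets were higher. The 3 green tissue markers had means of -0.12 to -0.04 over the wild type arrays and of 0.17 to 0.28 over the ddm1 arrays. None of these markers is a member. The share of such cell types in the members' differences was not tested, and in whole buds more cells of a type and more RNA per cell cannot be told apart. Of a list of 17 genes whose expression is tied to DNA methylation, 2 had a probe set that names 1 gene. Both rose, QQS by 5.20 ± 0.22 and MPC by 0.63 ± 0.12. Neither is a member, QQS because it lies inside a pericentromeric range and MPC because it falls short of the limit. Of all probe sets 3.5% were called higher, and with 2 readings nothing is drawn from this count. None of 15 DNA damage response genes was analysed here.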

How the data were processed

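GCRMA was used by the authors to make the values, per the submitters' processing notes, which give no version. What was deposited is log2, as judged from GCRMA and from the range of -10.0 to 8.57, and each probe set is centred on a baseline whose samples the sources used here do not name. No level above background can be read from them, and GCRMA compresses dim signals. Of 22810 probe sets 64 controls were left out. The platform annotation named 1 gene for 13513 probe sets, several for 503 and none for 8730. Of the 13513, 13436 matched the RefSeq table of TAIR10.1 by gene number, which gave symbols, types and locus order (protein-coding, pseudogene and transcribed pseudogene loci); 12443 were protein-coding.

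The fit was limma 3.58.1 (lmFit, eBayes) in R 4.3.3 with genotype as the single term over the 6 arrays, two-sided, with Benjamini-Hochberg adjustment over 22746 probe sets and calls at an adjusted p under 0.05; it was tested on simulated data. Counts and figures used Python 3.11.15, numpy 2.4.6, pandas 2.3.3 and matplotlib 3.10.9. With 3 arrays per genotype the number of arrays limits the precision.

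The members and lists were chosen with earlier results of these data known. A rule named the 12 largest differences, members with a symbol, and up to 8 members within 10 loci of another. It also named the 3 probe sets nearest each side of the limit. Gene families could not be used in that rule, and promoter content and protein length were not analysed here. Other genes were named outside that rule, from lists or for another limit, a kind of probe set, a position or an uncalled difference. AT4G19240, AT1G49680, AT3G14670, AT5G24480, AT1G19960, AT1G23130, AT5G03350 and AT3G26800 were named after their values were seen. Alternatives were array centring, plain _at probe sets, other limits, variance models, a filter on flat probe sets, a replicate block and leaving out each array.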

Additional observations from a re-analysis of the deposited data

How the results depend on the processing

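The number of members depends most on the limits. It was 24 with a difference of at least 2, 195 with a difference of at least 1.5-fold, and 112 with no limit on the ddm1 SD, each by construction. It stayed within 1.5 times of 71 when overlap was allowed (74), with plain _at probe sets (65) and with each array centred on its median (71). Leaving out 1 array gave 71 to 116 members, and the highest count was that without ddm1 replicate 3. Of the 71, 59 were still chosen without ddm1 replicate 1. The median difference of the members was 1.45 to 1.73 without 1 array.

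Members called by limma numbered 59 and all probe sets called higher 795. Without variance moderation these were 33 and 373, and without 1 array 39 to 57 and 432 to 788, with both lowest counts without wild type replicate 1; without wild type replicates 2 and 3 the probe sets called higher were 527 and 510. All 71 were called, and 979 probe sets, when those with an SD under 0.1 over the 6 arrays were left out. That SD includes the difference between the genotypes, so the members pass this filter by construction and the count is no support for them. For the 71 members the differences were also taken with each array centred or 1 array left out. Of these 497 differences 473 moved by less than the SD of the ddm1 arrays, 24 moved by more, and 0 changed sign. Leaving out a ddm1 array cannot move a difference by as much as that SD. The rule separates the genotypes, so leaving out an array cannot change the sign. These counts were therefore largely fixed in advance and do not show how stable the differences are. Signal over background is unknown, so what dim signal hides cannot be stated. The cause was not tested.

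The numbers of the replicates were not shown to pair the samples. Deviations from the group means correlated between arrays of one number at 0.0752, 0.0900 and 0.0159, and 2 of 3 wild type arrays were closest to the ddm1 array of their number. With a replicate block limma called 34 members and 433 probe sets higher, and 40 members had every same-numbered difference at 1 or more.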
